A study of Homo sapiens with 12 samples.

Results

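NF-κB is a family of dimeric transcription factors, and 38 genes of its circuit are described here across 12 RNA libraries from a pair of lymphoma cell lines. The genes were chosen by symbol: the Rel family subunits, the IκB proteins that hold them, the kinases and adaptors that release them, the brakes on that signal, and well-known target genes. All 38 were found among the 26364 rows of the count table, and 37 had enough counts for a test. The interleukin gene IL6 did not.

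Polyadenylated RNA was sequenced from cultures under the labels JeKo-1 and Granta-519, both established lines of mantle cell lymphoma, grown in RPMI with serum. Each line received 4 µM chidamide or vehicle for 12 h, which gave 4 groups of 3 libraries: JeKo-1 label with chidamide, JeKo-1 label with vehicle, Granta-519 with chidamide and Granta-519 with vehicle. Chidamide is a benzamide inhibitor of class I histone deacetylases, and the title of the series concerns lymphomas that express both MYC and BCL2. Separate cultures are not stated for the replicates, and p-values therefore reflect spread between libraries that may be technical only.

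In resting cells, dimers of the Rel family are kept in the cytoplasm by IκB proteins. In the canonical branch, signals from antigen receptors, Toll-like receptors or tumour necrosis factor activate a kinase complex that marks IκB for destruction, and the freed dimers switch on target genes, among them the genes of their own inhibitors. In the alternative branch, the kinase encoded by MAP3K14 drives the trimming of the NFKB2 product, which then pairs with RELB. Both branches are known to be active in subsets of mantle cell lymphoma.

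Library totals ran from 12873642 to 16592694 counts. The 6 B-cell markers examined were present in every group, with sums of 2776 to 4149 CPM, which are counts scaled to library size. SOX11, a marker of mantle cell lymphoma, had 0 counts in all libraries labelled JeKo-1. There the cyclin gene CCND1 had 44 counts over the chidamide libraries and 5 counts over the vehicle libraries, against 1746 ± 109 CPM with chidamide and 2113 ± 42.9 CPM with vehicle in Granta-519 (SD, n = 3 each). Since JeKo-1 cells are known to express this pair of genes, the libraries in question carry the word label throughout. Granta-519 is known to carry Epstein-Barr virus, whose transcripts were not analysed here. Sums of 8 myeloid markers were 40.7 to 42.5 CPM with chidamide and 2.40 to 4.10 CPM with vehicle under the JeKo-1 label, and 96.0 to 104 CPM with chidamide and 26.2 to 26.5 CPM with vehicle in Granta-519. ITGAM and CSF1R made up most of these sums, CD14 averaged at most 0.464 CPM in any group, and MPO was at 0 counts in all groups but Granta-519 vehicle, where it had 2. Sums of 8 T and natural killer cell markers were 5.26 to 7.79 CPM with chidamide and 2.81 to 4.65 CPM with vehicle under the JeKo-1 label, and 6.98 to 9.18 CPM with chidamide and 1.498 to 1.67 CPM with vehicle in Granta-519. In Granta-519 CD5 made up most of the latter sums, averaging 6.78 CPM with chidamide and 1.06 CPM with vehicle. There CD3D and CD3G were at 0 counts, and CD3E had 13 counts over the chidamide libraries and 0 over the vehicle libraries. Under the JeKo-1 label NKG7 made up most of these sums, averaging 4.58 CPM with chidamide and 3.28 CPM with vehicle. Sums of 6 epithelial and stromal markers were 35.05 to 39.0 CPM with chidamide and 25.7 to 29.4 CPM with vehicle under the JeKo-1 label. In Granta-519 they were 79.5 to 85.1 CPM with chidamide and 64.9 to 69.9 CPM with vehicle. COL1A1 made up most of them in every group. The part of the myeloid, T and natural killer cell, epithelial and stromal marker transcripts in the results below was not tested.

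Several members carry the DNA word that NF-κB dimers bind, the κB consensus, just upstream of their own start. The 6 stretches below, from RefSeq starts on GRCh38.p14, were picked from members and starts that hold a match: 5 of these genes rose in both lines, and NFKBIB fell in both. They are not typical of all members that moved. TNF, TRAF1, BCL3, TNFAIP8 and CCL3, which rose in both, held no match in the 250 bases searched. Neither did RELA, TRAF2, MYD88 and SOD2, which fell in both. Each runs 5′ to 3′ on the gene's strand over 100 bases, the last 100 before the start in all but BIRC3, where they are bases 209 to 110 before it, and capitals mark matches to the κB consensus on either strand, with overlapping matches merged.
NFKBIA, chr14:35404750-35404849, minus strand: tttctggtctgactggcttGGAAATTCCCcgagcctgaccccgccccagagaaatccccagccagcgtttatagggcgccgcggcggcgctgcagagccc
TNFAIP3, chr6:137867159-137867258, plus strand: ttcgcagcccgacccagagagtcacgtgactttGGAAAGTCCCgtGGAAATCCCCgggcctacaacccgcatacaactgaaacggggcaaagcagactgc
CD83, chr6:14117672-14117771, plus strand: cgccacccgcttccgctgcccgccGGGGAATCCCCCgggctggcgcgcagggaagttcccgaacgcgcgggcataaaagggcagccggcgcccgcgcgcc
BIRC3, chr11:102317275-102317374, plus strand: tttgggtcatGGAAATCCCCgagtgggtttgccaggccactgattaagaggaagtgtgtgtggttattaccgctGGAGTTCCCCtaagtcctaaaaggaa
REL, chr2:60881474-60881573, plus strand: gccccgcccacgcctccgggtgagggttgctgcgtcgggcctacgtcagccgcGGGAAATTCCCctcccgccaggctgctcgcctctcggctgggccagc
NFKBIB, chr19:38899869-38899968, plus strand: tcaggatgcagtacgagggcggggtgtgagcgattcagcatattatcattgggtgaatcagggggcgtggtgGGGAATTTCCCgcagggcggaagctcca
The matches in TNFAIP3 begin 67 and 55 bases before the start, and those in BIRC3 199 and 135 bases before it. The match begins 81 bases before the start in NFKBIA, 76 in CD83, 47 in REL and 28 in NFKBIB. A match describes the letters only and is no evidence of binding in these cells.

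The first question was how 12 h of chidamide altered these genes in each line. Under the JeKo-1 label 21 of the 37 tested members rose and 12 fell, where 35.3% of all 15087 tested genes rose and 31.1% fell, 66.4% in all (adjusted p under 0.05, edgeR's quasi-likelihood test with Benjamini-Hochberg adjustment over all tested genes). In Granta-519 23 members rose and 10 fell, where 39.6% of all tested genes rose and 31.3% fell, 70.9% in all. The median log2 change of the members was 0.26 under the JeKo-1 label and 0.27 in Granta-519, against 0.04 and 0.08 over all tested genes. Changes of at least 2-fold were fewer: 8 members rose and 3 fell by that much under the JeKo-1 label (17.1% and 2.65% of all tested genes), and 5 rose and 2 fell in Granta-519 (18.2% and 2.41%). The share of members that moved upward by 2-fold was thus near the background in both lines. With TMM scaling 53.1% of all calls under the JeKo-1 label were rises, against 64.9% with upper-quartile and 63.7% with library-size scaling. In these bulk libraries fewer cells of a type and less RNA per cell cannot be told apart, and each level is a share of its library.

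Taken by line, 15 members rose in both, against 24.1% of all tested genes, and 7 fell in both, against 22.4%. Those that rose in both were REL, NFKBIA, NFKBIZ, BCL3, TRAF1, BIRC3, TNFAIP3, CCL22, CCL3, CCL4, TNF, LTA, LTB, TNFAIP8 and CD83. Those that fell in both were RELA, RELB, NFKBIB, NFKBIE, TRAF2, MYD88 and SOD2. NFKB1, NFKB2 and CYLD rose under the JeKo-1 label and fell in Granta-519, as did 2.18% of all tested genes. CHUK, MAP3K14, CCL17 and IL10 fell under the JeKo-1 label and rose in Granta-519, as did 2.98% of all tested genes. The remaining 8 tested members, BCL10, EBI3, ICAM1, IKBKB, MALT1, TNFAIP2, TNIP1 and TRAF3, were called in 1 line only.

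**Figure D1:**
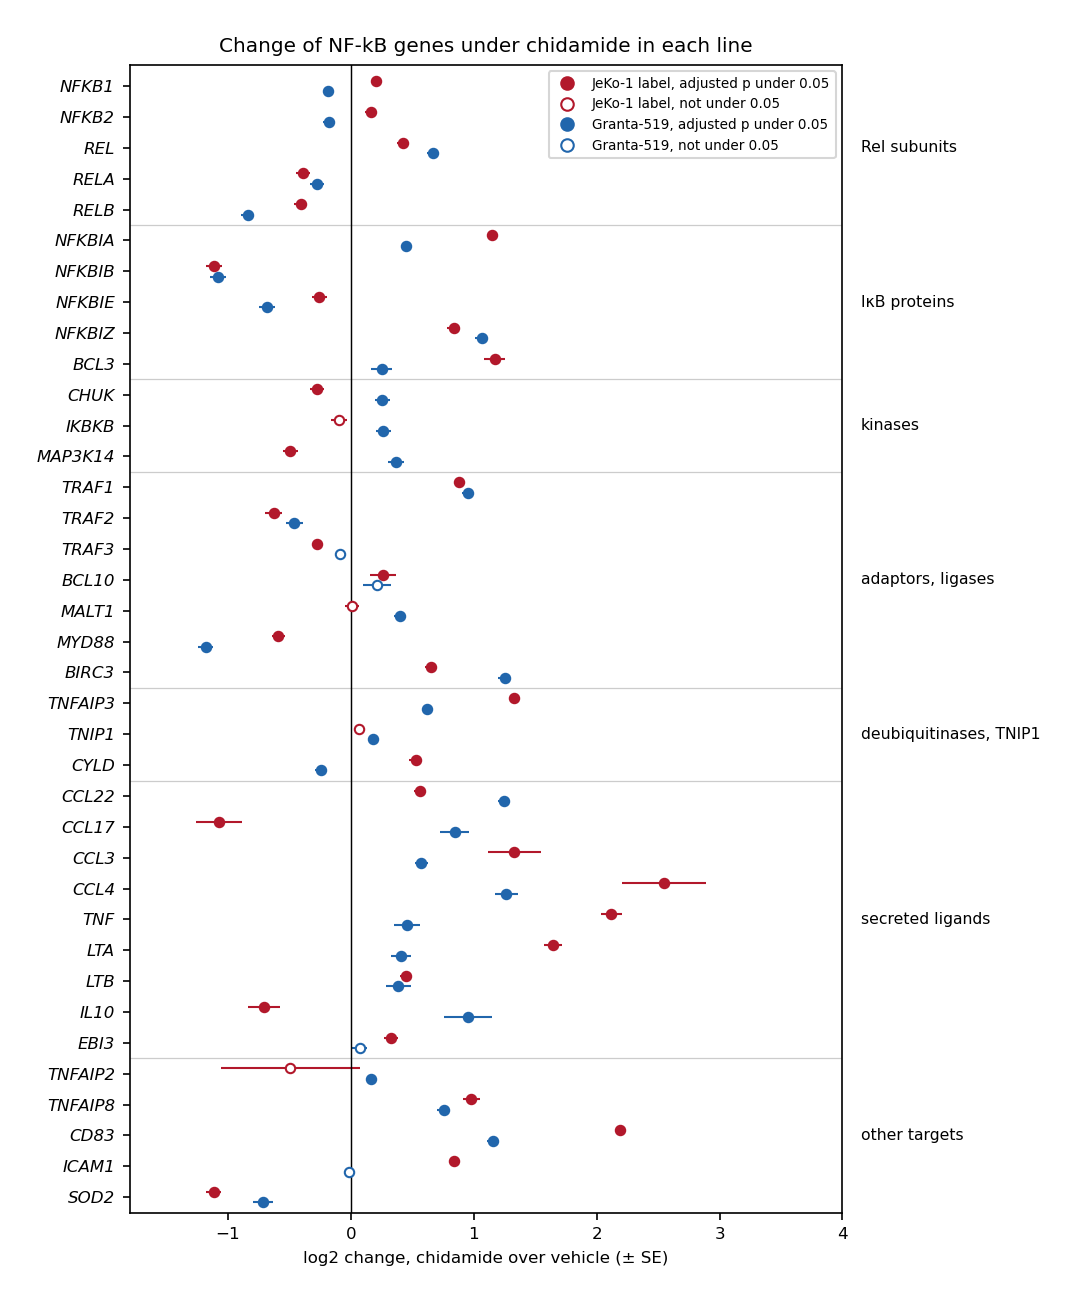
Log2 change under chidamide relative to vehicle for the 37 tested members, grouped by role, with points for the JeKo-1 label and Granta-519 (n = 3 libraries per group) and bars of ± SE from the edgeR fit. TNF, CD83 and CCL4 lie farthest to the right under the JeKo-1 label, and NFKBIB lies left of 0 by about the same distance in both lines.

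The subunit genes did not move as a block. REL, which encodes a subunit known mainly from lymphoid cells, stood at 156, 154 and 141 CPM with chidamide and at 117, 106 and 113 CPM with vehicle under the JeKo-1 label. In Granta-519 it stood at 180, 173 and 191 CPM with chidamide and at 115, 118 and 109 CPM with vehicle. REL thus rose in both lines with no overlap between groups, by 0.42 ± 0.05 on the log2 scale under the JeKo-1 label (SE; edgeR adjusted p = 1.70e-10) and by 0.67 ± 0.05 in Granta-519 (edgeR adjusted p = 1.23e-17). It was the only subunit gene called higher in both. REL shares exon sequence with AC010733.2 on the same strand, so some of its reads are uncertain.

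RELA encodes the main transactivating partner of the canonical dimer. Its levels were 82.2, 77.7 and 83.1 CPM with chidamide and 106, 113 and 100.1 CPM with vehicle under the JeKo-1 label, and 61.3, 64.8 and 64.6 CPM with chidamide and 79.8, 76.2 and 74.4 CPM with vehicle in Granta-519. All chidamide libraries lay below all vehicle libraries of the same line, with log2 changes of -0.39 ± 0.05 under the JeKo-1 label and -0.27 ± 0.06 in Granta-519 (edgeR adjusted p = 8.66e-09 and 2.79e-05). RELB, the partner of the alternative branch, was at 81.4, 77.4 and 73.1 CPM with chidamide and 101, 106 and 100.01 CPM with vehicle under the JeKo-1 label. In Granta-519 it was at 76.7, 73.8 and 73.2 CPM with chidamide and 136, 134 and 129 CPM with vehicle. RELB therefore fell in both lines, by 0.41 ± 0.05 under the JeKo-1 label and by 0.84 ± 0.05 in Granta-519 on the log2 scale (edgeR adjusted p = 1.48e-09 and 7.90e-21).

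NFKB1 and NFKB2 encode the precursors that are trimmed to DNA-binding subunits and that also act as IκB proteins while untrimmed. NFKB1 had 184, 178 and 182 CPM with chidamide and 158, 165 and 149 CPM with vehicle under the JeKo-1 label, and 230, 227 and 225 CPM with chidamide and 260, 256 and 260 CPM with vehicle in Granta-519. NFKB2 had 244, 252 and 246 CPM with chidamide and 212, 236 and 215 CPM with vehicle under the JeKo-1 label, and 337, 333 and 318 CPM with chidamide and 385, 386 and 350 CPM with vehicle in Granta-519. The groups did not overlap for either gene, yet both shifts were small and ran opposite ways in the lines: log2 changes were 0.21 ± 0.04 for NFKB1 and 0.16 ± 0.04 for NFKB2 under the JeKo-1 label, and -0.19 ± 0.04 and -0.18 ± 0.04 in Granta-519 (edgeR adjusted p between 4.17e-05 and 0.00105). With upper-quartile scaling the Granta-519 falls of NFKB1 and NFKB2 no longer passed the threshold.

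Among the 5 IκB genes, 3 rose and 2 fell in each line. Of all tested genes 35.3% rose and 31.1% fell under the JeKo-1 label, and 39.6% and 31.3% in Granta-519. NFKBIA encodes IκB alpha, the inhibitor that is destroyed first on stimulation and remade as an early target. It reached 221, 224 and 217 CPM with chidamide, against 97.8, 99.8 and 101 CPM with vehicle, under the JeKo-1 label. In Granta-519 it reached 286, 288 and 264 CPM with chidamide, against 199.9, 208 and 205 CPM with vehicle. The rise was 1.15 ± 0.05 under the JeKo-1 label and 0.45 ± 0.04 in Granta-519 on the log2 scale (edgeR adjusted p = 3.30e-29 and 5.90e-14). NFKBIZ encodes a nuclear IκB protein that acts as a cofactor for some targets. It had 103, 107 and 114 CPM with chidamide and 63.9, 57.8 and 60.3 CPM with vehicle under the JeKo-1 label, and 154, 147 and 149.9 CPM with chidamide and 69.8, 72.4 and 73.0 CPM with vehicle in Granta-519. Its log2 changes were 0.84 ± 0.05 under the JeKo-1 label and 1.07 ± 0.05 in Granta-519 (edgeR adjusted p = 7.21e-20 and 3.32e-25), so it rose in both. BCL3, a nuclear IκB protein that binds dimers of the trimmed subunits, had 41.1, 46.1 and 39.1 CPM with chidamide and 16.9, 19.3 and 20.04 CPM with vehicle under the JeKo-1 label. In Granta-519 it had 30.5, 29.2 and 26.1 CPM with chidamide and 24.3, 23.0 and 24.7 CPM with vehicle. The BCL3 rise was 1.17 ± 0.09 under the JeKo-1 label and 0.25 ± 0.09 in Granta-519 on the log2 scale (edgeR adjusted p = 7.62e-18 and 0.00749). The Granta-519 call was lost when no filter on low counts was used, where the log2 change was 0.14.

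NFKBIB encodes IκB beta, an inhibitor remade more slowly than IκB alpha. Its levels were 44.2, 45.3 and 44.9 CPM with chidamide and 84.7, 106 and 101 CPM with vehicle under the JeKo-1 label, and 39.7, 37.1 and 39.0 CPM with chidamide and 84.3, 80.5 and 79.9 CPM with vehicle in Granta-519. Both lines thus ended near the same level, with log2 changes of -1.12 ± 0.06 and -1.08 ± 0.07 (edgeR adjusted p = 3.17e-22 and 4.11e-21). NFKBIB and the gene SIRT2 on the opposite strand share exon sequence, and since the strand setting of the counting is not given in the sources used here, reads of that stretch could belong to either. NFKBIE, which encodes IκB epsilon, averaged 72.2 ± 4.26 CPM with chidamide and 86.4 ± 7.89 CPM with vehicle under the JeKo-1 label, and 49.6 ± 2.17 CPM with chidamide and 79.7 ± 6.64 CPM with vehicle in Granta-519 (SD, n = 3 each). It fell in both lines, by 0.26 under the JeKo-1 label and by 0.68 in Granta-519 on the log2 scale. The JeKo-1-label call was lost under upper-quartile and library-size scaling and with the authors' deposited scores.

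The 3 kinase genes shifted by less than 2-fold in each line. CHUK and IKBKB encode the catalytic subunits of the kinase complex, and MAP3K14 the kinase of the alternative branch. MAP3K14 averaged 49.0 ± 3.87 CPM with chidamide and 68.7 ± 0.799 CPM with vehicle under the JeKo-1 label, and 58.3 ± 2.34 CPM with chidamide and 45.2 ± 2.33 CPM with vehicle in Granta-519 (SD, n = 3 each). It fell by 0.49 on the log2 scale under the JeKo-1 label and rose by 0.37 in Granta-519 (edgeR adjusted p = 1.29e-09 and 1.39e-06). CHUK also fell under the JeKo-1 label and rose in Granta-519, with log2 changes of -0.28 and 0.26. IKBKB rose in Granta-519, by 0.27, and its log2 change under the JeKo-1 label was -0.09 ± 0.06 (edgeR adjusted p = 0.185). CHUK shares exon sequence with ERLIN1 on the same strand, and MAP3K14 with its antisense gene MAP3K14-AS1, so some of their reads are uncertain. The CHUK call under the JeKo-1 label was lost with upper-quartile scaling and with the authors' deposited scores.

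Among the 7 adaptor and ligase genes, 3 rose and 3 fell under the JeKo-1 label (35.3% and 31.1% of all tested genes). In Granta-519 3 rose and 2 fell (39.6% and 31.3%). BIRC3 encodes a ubiquitin ligase that limits the alternative branch and is itself a canonical target. It had 1369, 1283 and 1253 CPM with chidamide and 840, 763 and 888 CPM with vehicle under the JeKo-1 label. In Granta-519 it had 560, 546 and 612 CPM with chidamide and 226, 239 and 256 CPM with vehicle. BIRC3 rose by 0.65 ± 0.05 under the JeKo-1 label and by 1.25 ± 0.05 in Granta-519 on the log2 scale (edgeR adjusted p = 3.87e-13 and 7.95e-20). MYD88 encodes the adaptor of Toll-like receptors. Its levels were 75.3, 73.4 and 72.4 CPM with chidamide and 106, 119 and 107 CPM with vehicle under the JeKo-1 label, and 38.6, 42.0 and 37.3 CPM with chidamide and 88.8, 90.8 and 87.7 CPM with vehicle in Granta-519. MYD88 fell in both, by 0.59 ± 0.06 under the JeKo-1 label and by 1.18 ± 0.06 in Granta-519 on the log2 scale (edgeR adjusted p = 6.44e-14 and 1.77e-24).

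The 3 TRAF genes, which encode adaptors of tumour necrosis factor receptors, differed from each other. TRAF1, a known NF-κB target, averaged 298 ± 3.39 CPM with chidamide and 162 ± 5.67 CPM with vehicle under the JeKo-1 label, and 184 ± 2.22 CPM with chidamide and 95.003 ± 2.21 CPM with vehicle in Granta-519 (SD, n = 3 each). It rose by 0.88 under the JeKo-1 label and 0.95 in Granta-519 on the log2 scale, just under 2-fold in each. TRAF2 fell by 0.63 under the JeKo-1 label and by 0.46 in Granta-519. TRAF3, which holds the MAP3K14 product at a low level, fell by 0.27 under the JeKo-1 label, and its log2 change in Granta-519 was -0.08 ± 0.05 (edgeR adjusted p = 0.0976). BCL10 and MALT1 encode proteins that relay signals from the B-cell receptor. BCL10 was called higher under the JeKo-1 label, by 0.26, although its libraries overlapped at 18.1 to 22.2 CPM with chidamide and 14.5 to 18.7 CPM with vehicle. That call was lost without JeKo-1-label chidamide replicate 3 (log2 change 0.18), vehicle replicate 2 (0.20) or vehicle replicate 3 (0.23). MALT1 rose by 0.40 in Granta-519, and its log2 change under the JeKo-1 label was 0.01 ± 0.06 (edgeR adjusted p = 0.885).

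TNFAIP3 encodes the ubiquitin-editing enzyme that shuts the canonical signal off, and it is an early target of that signal. It had 291, 286 and 291 CPM with chidamide and 117, 115 and 113 CPM with vehicle under the JeKo-1 label. In Granta-519 it had 377, 378 and 374 CPM with chidamide and 236, 245 and 255 CPM with vehicle. The groups were far apart in both lines, with log2 changes of 1.33 ± 0.04 under the JeKo-1 label and 0.62 ± 0.04 in Granta-519 (edgeR adjusted p = 2.99e-33 and 4.08e-20). TNIP1, whose product helps that enzyme bind ubiquitin, rose by 0.18 in Granta-519, and its log2 change under the JeKo-1 label was 0.06 ± 0.04 (edgeR adjusted p = 0.163). TNIP1 did pass under the JeKo-1 label in 10 of 23 alternatives, among them upper-quartile and library-size scaling. CYLD, a deubiquitinase that restrains both branches, averaged 102 ± 2.91 CPM with chidamide and 70.6 ± 4.81 CPM with vehicle under the JeKo-1 label, and 120.04 ± 4.80 CPM with chidamide and 142 ± 2.13 CPM with vehicle in Granta-519 (SD, n = 3 each). It rose by 0.53 under the JeKo-1 label and fell by 0.24 in Granta-519 on the log2 scale (edgeR adjusted p = 9.81e-13 and 2.88e-05).

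Of the 10 genes of secreted ligands, 9 were tested. Under the JeKo-1 label 7 rose and 2 fell (35.3% and 31.1% of all tested genes), and in Granta-519 8 rose and none fell (39.6% and 31.3%). TNF encodes tumour necrosis factor, both a target and an inducer of NF-κB. It had 76.2, 69.9 and 69.7 CPM with chidamide and 13.8, 18.4 and 17.7 CPM with vehicle under the JeKo-1 label, and 14.7, 16.2 and 16.4 CPM with chidamide and 10.8, 11.9 and 11.7 CPM with vehicle in Granta-519. The JeKo-1-label libraries thus rose 4.34-fold (log2 change 2.12 ± 0.08, edgeR adjusted p = 5.07e-29) and those of Granta-519 1.37-fold (0.46 ± 0.10, edgeR adjusted p = 0.000115). With the authors' deposited scores at a pseudocount of 0.4, the log2 change of TNF under the JeKo-1 label was 1.26. The per-gene scale of that score is far from exon length for TNF, and a pseudocount shrinks changes of low scores. LTA, the neighbour gene that encodes lymphotoxin alpha, had 80.8, 90.9 and 83.1 CPM with chidamide and 28.5, 26.0 and 26.7 CPM with vehicle under the JeKo-1 label. In Granta-519 LTA had 28.1, 27.2 and 26.0 CPM with chidamide and 19.1, 22.8 and 19.2 CPM with vehicle. It rose by 1.65 ± 0.07 under the JeKo-1 label and by 0.41 ± 0.08 in Granta-519 on the log2 scale (edgeR adjusted p = 4.81e-27 and 2.11e-05). LTB, which encodes the membrane partner of lymphotoxin alpha and a ligand of the alternative branch, rose by 0.45 under the JeKo-1 label and by 0.39 in Granta-519. Its levels overlapped in Granta-519, at 11.6 to 15.3 CPM with chidamide and 9.46 to 11.8 CPM with vehicle.

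The chemokine genes did not all move the same way. CCL22, which encodes an attractant of regulatory T cells, had 307, 328 and 309 CPM with chidamide and 203, 225 and 211 CPM with vehicle under the JeKo-1 label. In Granta-519 it had 257, 277 and 259 CPM with chidamide and 112, 117 and 104 CPM with vehicle. CCL22 rose in both lines, by 0.56 ± 0.05 under the JeKo-1 label and by 1.25 ± 0.05 in Granta-519 on the log2 scale (edgeR adjusted p = 2.38e-16 and 5.93e-30). CCL17, whose product shares a receptor with that of CCL22, had 2.13, 2.27 and 2.42 CPM with chidamide and 5.19, 4.87 and 4.22 CPM with vehicle under the JeKo-1 label, and 15.8, 17.8 and 16.2 CPM with chidamide and 8.21, 9.17 and 10.3 CPM with vehicle in Granta-519. The pair parted under the JeKo-1 label, where CCL17 fell by 1.07 ± 0.19 on the log2 scale (edgeR adjusted p = 1.83e-06), whereas in Granta-519 it rose by 0.85 ± 0.12 (edgeR adjusted p = 1.03e-08).

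CCL3 and CCL4 encode inflammatory chemokines that B cells make on receptor signalling. CCL3 had 2.66, 3.63 and 3.44 CPM with chidamide and 1.57, 1.20 and 0.993 CPM with vehicle under the JeKo-1 label, and 221, 235 and 226 CPM with chidamide and 143, 155 and 160.1 CPM with vehicle in Granta-519. CCL4 had 2.36, 2.27 and 2.48 CPM with chidamide and 0.751, 0.300 and 0.0828 CPM with vehicle under the JeKo-1 label, and 40.3, 41.8 and 43.2 CPM with chidamide and 15.8, 17.6 and 18.9 CPM with vehicle in Granta-519. Both rose in both lines without overlap. The log2 changes of CCL3 were 1.33 ± 0.22 under the JeKo-1 label and 0.57 ± 0.05 in Granta-519 (edgeR adjusted p = 3.77e-07 and 4.35e-15), and those of CCL4 were 2.55 ± 0.34 and 1.26 ± 0.09 (edgeR adjusted p = 2.79e-09 and 1.46e-17). The CCL4 values under the JeKo-1 label rest on 111 counts over the chidamide libraries and on 11, 4 and 1 counts in the vehicle libraries. The log2 change of CCL4 there was 3.55 without vehicle replicate 1 and 1.17 with the authors' deposited scores at a pseudocount of 0.4. Near-identical copies of both genes exist, so their reads may be split among them.

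IL10 encodes an anti-inflammatory cytokine that B cells can use as a growth signal. It had 10.1, 9.38 and 8.40 CPM with chidamide and 14.4, 17.8 and 13.3 CPM with vehicle under the JeKo-1 label, and 4.79, 4.59 and 4.20 CPM with chidamide and 2.21, 2.78 and 2.00 CPM with vehicle in Granta-519. IL10 thus fell under the JeKo-1 label, by 0.71 ± 0.13 on the log2 scale, and rose in Granta-519, by 0.95 ± 0.20 (edgeR adjusted p = 2.34e-06 and 2.59e-05). EBI3, which encodes a shared subunit of the cytokines IL-27 and IL-35, rose by 0.33 under the JeKo-1 label, and its log2 change in Granta-519 was 0.07 ± 0.06 (edgeR adjusted p = 0.306). IL6, the gene of the inflammatory cytokine interleukin-6, was near silent. It had 0, 2 and 3 counts with chidamide and 0 in each vehicle library under the JeKo-1 label, and 13, 6 and 14 counts with chidamide and 0 in each vehicle library in Granta-519. The 5 counts under the JeKo-1 label were too few to read a change. With the vehicle group set to a floor of 3 counts, IL6 was at least 11.7-fold higher with chidamide in Granta-519, from 33 counts over the chidamide libraries, a figure that carries no test and leaves the counting error of those 33 aside.

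**Figure D2:**
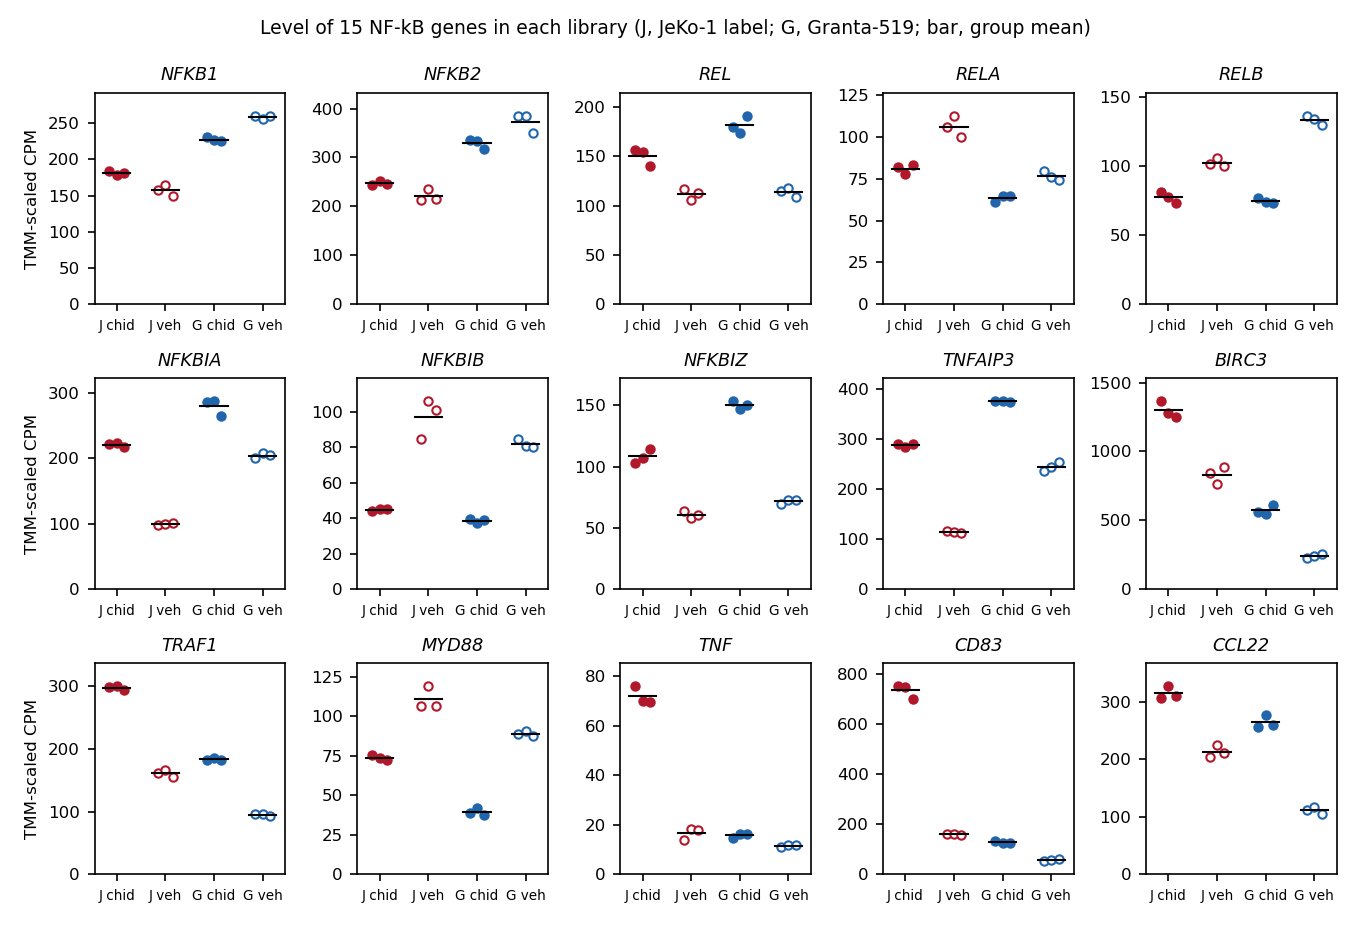
TMM-scaled CPM on linear axes from 0 in each of the 12 libraries for 15 members, 1 panel per gene, with chidamide left of vehicle in each line and a bar at each group's mean (n = 3). TNF and CD83 separate the groups most clearly under the JeKo-1 label, while NFKB1 and NFKB2 shift slightly and in opposite directions in the lines.

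Of the 5 further targets, CD83 changed most. It encodes a surface protein of activated B cells and dendritic cells. Its levels were 753, 749.7 and 699 CPM with chidamide and 162, 162 and 157 CPM with vehicle under the JeKo-1 label. In Granta-519 it had 132, 127 and 125 CPM with chidamide and 54.6, 58.4 and 58.7 CPM with vehicle. CD83 rose 4.57-fold under the JeKo-1 label (log2 change 2.19 ± 0.04, edgeR adjusted p = 2.77e-43) and 2.23-fold in Granta-519 (1.16 ± 0.05, edgeR adjusted p = 2.69e-28). SOD2 encodes the mitochondrial superoxide dismutase, a classic target that protects from tumour necrosis factor. It had 58.7, 55.7 and 55.7 CPM with chidamide and 122, 125 and 122 CPM with vehicle under the JeKo-1 label, and 20.9, 18.1 and 14.97 CPM with chidamide and 28.5, 30.7 and 29.6 CPM with vehicle in Granta-519. Unlike CD83, it fell in both lines, by 1.11 ± 0.06 under the JeKo-1 label and by 0.72 ± 0.08 in Granta-519 on the log2 scale (edgeR adjusted p = 1.21e-22 and 4.57e-11).

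ICAM1, an adhesion molecule gene, averaged 214 ± 4.74 CPM with chidamide and 119 ± 2.52 CPM with vehicle under the JeKo-1 label, and 170.5 ± 2.62 CPM with chidamide and 172 ± 2.72 CPM with vehicle in Granta-519 (SD, n = 3 each). It rose by 0.84 under the JeKo-1 label (edgeR adjusted p = 8.55e-24), and its log2 change in Granta-519 was -0.02 ± 0.04 (edgeR adjusted p = 0.755). TNFAIP8, which encodes a protein that counters cell death, rose by 0.98 under the JeKo-1 label and by 0.76 in Granta-519 on the log2 scale. TNFAIP2, first found as a gene induced by tumour necrosis factor, had 3, 3 and 3 counts with chidamide and 4, 6 and 1 counts with vehicle under the JeKo-1 label, too few to read a change (log2 change -0.49 ± 0.57, edgeR adjusted p = 0.501). In Granta-519 it rose by 0.17, with 384 ± 9.15 CPM with chidamide and 342 ± 7.57 CPM with vehicle (SD, n = 3 each).

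A further list held other signalling genes of the pathway, of which 38 were tested. Under the JeKo-1 label 15 rose and 12 fell (35.3% and 31.1% of all tested genes), and in Granta-519 15 rose and 15 fell (39.6% and 31.3%). The 3 with the largest called change under the JeKo-1 label were TLR7, a sensor of RNA (log2 change 4.19), TNFRSF1B, a receptor of tumour necrosis factor (2.64), and IRAK2, a kinase-like adaptor downstream of MYD88 (2.00). TLR7 had 20.3, 15.3 and 13.8 CPM with chidamide and 0.751, 0.899 and 1.08 CPM with vehicle there. In Granta-519 the 3 were TNFRSF1B (1.31), IRAK2 (1.25) and TNFRSF8, the gene of the receptor CD30 (1.16). The signalling genes thus moved in both directions, at shares near those of all tested genes for the rises.

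A list of other known targets gave 26 tested genes. NFKBID is in both this list and the signalling list and is counted in each. Like the members and the signalling list, the target list was chosen with earlier results of these data known. Its counts are therefore not independent evidence. Under the JeKo-1 label 21 rose and 1 fell (35.3% and 31.1% of all tested genes), and in Granta-519 16 rose and 3 fell (39.6% and 31.3%). The leading genes in Granta-519 were IL2RA, the gene of the interleukin-2 receptor alpha chain (log2 change 5.41), CXCR5, a homing receptor of B cells (4.00), and CD86, a costimulatory ligand (2.1). IL2RA there rested on 215 counts with chidamide and 5 with vehicle over the groups. Under the JeKo-1 label the leading genes were IL2RA, CXCL10 and CXCL8, the last 2 being chemokine genes. CXCL10 had 101, 91.2 and 87.6 CPM with chidamide and 4.65, 4.27 and 3.39 CPM with vehicle. IL2RA rested on 96 counts with chidamide and 3 with vehicle over the groups, a ratio of 27.4 (95% interval from counting error 9.11 to 135), and CXCL8 on 24 and 1, a ratio of 20.6 (3.36 to 846). The filter left out 5 listed genes with few or no counts, CXCL1, CXCL2, CCL20, PTGS2 and PTX3, so these counts hold for the tested genes alone.

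The next question was whether a member's change differed between the lines, which was tested as the JeKo-1-label log2 change minus that in Granta-519. The difference was positive for 17 members and negative for 12, where 20% and 19.5% of all tested genes were called so, 39.5% in all. By at least 2-fold it was positive for 4 and negative for 2, against 5.96% and 3.45% of all tested genes. It was largest for TNF, at 1.66 ± 0.14 (edgeR adjusted p = 3.60e-15), followed by CCL4 at 1.28 ± 0.38 (0.00506), LTA at 1.24 ± 0.11 (8.59e-14) and CD83 at 1.03 ± 0.06 (6.61e-20). The most negative were CCL17 at -1.92 ± 0.22 (edgeR adjusted p = 3.16e-10), IL10 at -1.66 ± 0.23 (4.40e-08) and MAP3K14 at -0.86 ± 0.09 (1.67e-11). All 3 kinase genes had a more negative change under the JeKo-1 label, although the IKBKB call was lost without the count filter and with the unfiltered scores. Of the IκB genes NFKBIA (0.70 ± 0.06), BCL3 (0.92 ± 0.12) and NFKBIE (0.43 ± 0.09) had a more positive change there. NFKBIZ (-0.23 ± 0.08) had a more negative one, and NFKBIB was not called. Of the brake genes TNFAIP3 (0.71 ± 0.06) and CYLD (0.77 ± 0.07) had a more positive change, and TNIP1 was not called. BIRC3 (-0.60 ± 0.07) and CCL22 (-0.69 ± 0.07) rose more in Granta-519.

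For 8 members the difference between lines did not pass the threshold. That of NFKBIB was -0.04 ± 0.09, that of TRAF1 -0.07 ± 0.06, that of LTB 0.06 ± 0.12, that of RELA -0.12 ± 0.08 and that of TNIP1 -0.12 ± 0.06 on the log2 scale. TRAF2 (-0.17 ± 0.10) and BCL10 (0.05 ± 0.16) were the others with moderate counts, and TNFAIP2 was at -0.66 ± 0.57. A difference that misses the threshold does not show equal responses, and the SE gives the size that could be seen. The CCL4 difference was unstable: it was lost without JeKo-1-label vehicle replicate 3 (0.87), was 2.27 without vehicle replicate 1, did not pass in any of the 4 fits of the score, and was -0.03 in the one with a pseudocount of 0.4. That same fit gave -0.92 for IL10. The differences of CCL3, EBI3, IKBKB, NFKBIZ, REL, SOD2, TNFAIP8 and TRAF3 each lost their call under at least 1 alternative. With library-size scaling alone the share of called genes with a positive difference was 70.0% of all calls, against 50.6% with TMM scaling, and the members then gave 17 positive and 9 negative differences.

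**Figure D3:**
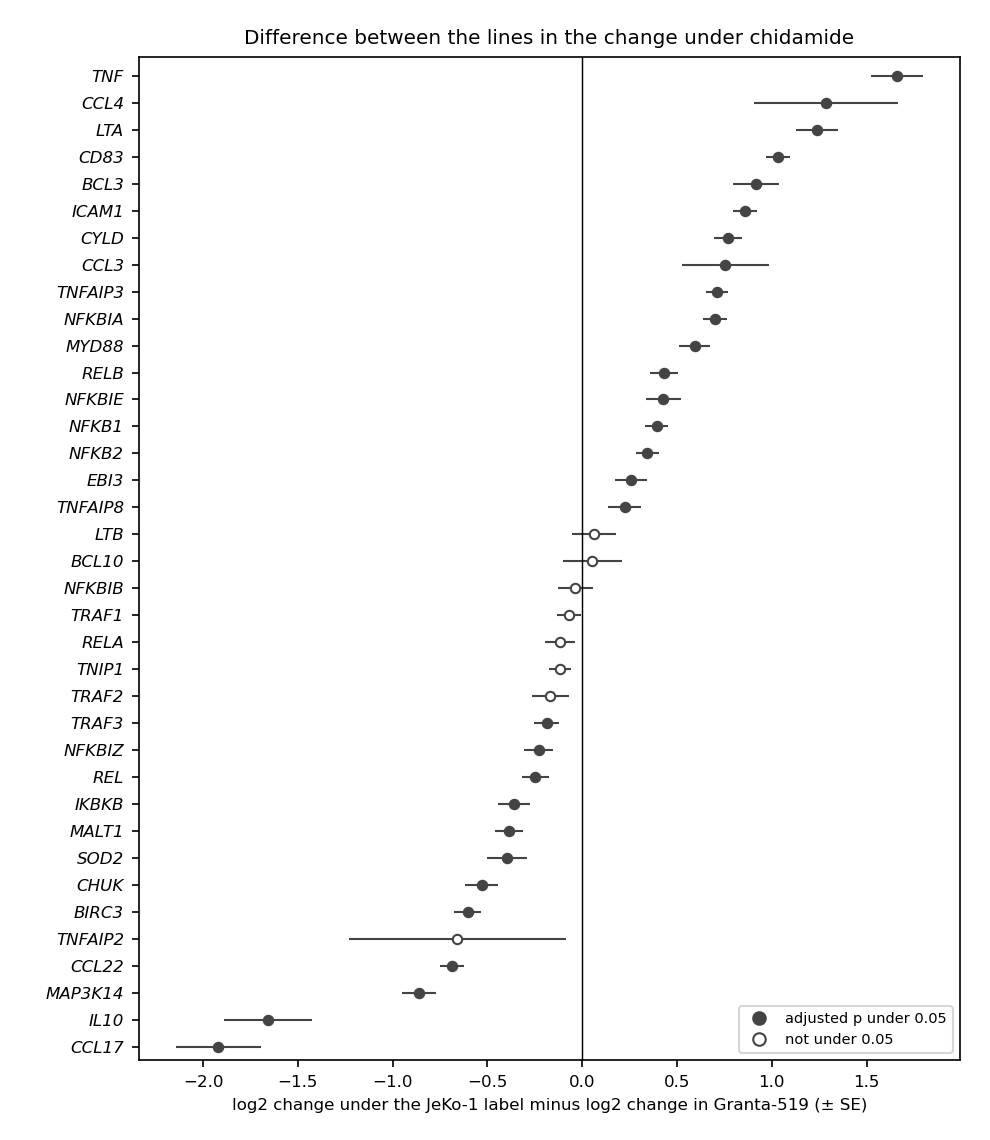
Difference between the lines in the log2 change under chidamide (JeKo-1 label minus Granta-519) for the 37 tested members, sorted, with bars of ± SE; filled points passed an edgeR adjusted p of 0.05. TNF is at the top with 1.66 and CCL17 at the bottom with -1.92.

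The vehicle libraries showed how the circuit stood in each line without the drug. Of the 37 members 19 were higher and 16 lower under the JeKo-1 label than in Granta-519, where 35.5% and 44.3% of all tested genes were so called, 79.8% in all. By at least 2-fold 5 were higher and 8 lower (12.8% and 26.3% of all tested genes). These vehicle libraries also served as the baseline of the comparisons above, so the results are not independent of each other. Most tested genes of any kind were apart between the lines.

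The largest gap was that of TNFAIP2, at 0.269 ± 0.183 CPM under the JeKo-1 label and 342 ± 7.57 CPM in Granta-519 (SD, n = 3 each). The log2 difference of TNFAIP2 was -10.24 (edgeR adjusted p = 1.49e-57). That value rests on 4, 6 and 1 counts in the JeKo-1-label vehicle libraries, so its size is uncertain and no SE is given. CCL3 was at 1.25 ± 0.293 CPM under the JeKo-1 label and 153 ± 8.84 CPM in Granta-519, and CCL4 at 0.378 ± 0.341 and 17.4 ± 1.55 CPM (SD, n = 3 each). In the other direction LTB stood at 229 ± 17.5 CPM under the JeKo-1 label and 10.7 ± 1.16 CPM in Granta-519 (SD, n = 3 each; log2 difference 4.42 ± 0.07, edgeR adjusted p = 1.30e-44). IL10 (2.70), SOD2 (2.05), BIRC3 (1.79) and CD83 (1.49) were also higher under the JeKo-1 label on the log2 scale. NFKBIA (-1.04), TNFAIP3 (-1.09), CYLD (-1.01), TNFAIP8 (-2.11) and MALT1 (-1.43) were lower there, while TNIP1 (0.38), NFKBIB (0.25) and TRAF1 (0.77) were higher. Neither line was therefore higher across all roles. Of the subunit genes, NFKB1 (-0.72 ± 0.04), NFKB2 (-0.76 ± 0.04) and RELB (-0.38 ± 0.05) were lower under the JeKo-1 label, RELA was higher (0.47 ± 0.05), and REL did not pass (-0.03 ± 0.05, edgeR adjusted p = 0.66), although it was called lower in 6 of 22 alternatives. With the scores at a pseudocount of 0.4 the largest gaps were smaller: -5.38 for TNFAIP2, -5.84 for CCL3, -3.52 for CCL4, 3.17 for LTB and 1.61 for IL10. The per-gene scale of the score is far from exon length for LTB. Without JeKo-1-label vehicle replicate 1 the gap of CCL4 was -6.42.

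**Figure D4:**
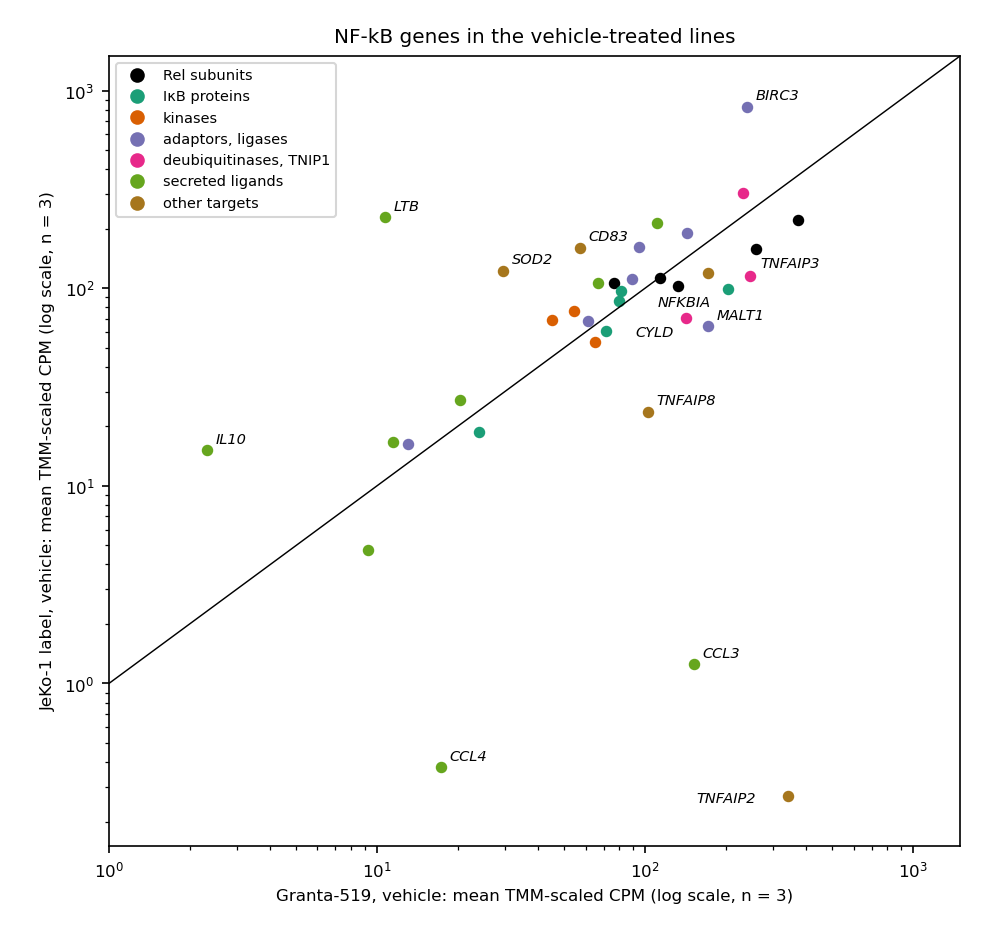
Mean TMM-scaled CPM of the 37 tested members in vehicle libraries, JeKo-1 label on the vertical and Granta-519 on the horizontal log axis (n = 3 each), coloured by role, with the line of equal level; members at least 2-fold apart are named. TNFAIP2, CCL3 and CCL4 lie far below the line and LTB far above it.

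Levels per length allow genes to be ranked against each other, here as mean CPM per kilobase of the union of exons in GENCODE v29. In chidamide libraries labelled JeKo-1 the subunit genes ran from NFKB2 (67.1), RELB (33.6), NFKB1 (32.8) and RELA (23.9) down to REL (13.4), against 60.0, 44.5, 28.5, 31.3 and 9.96 in vehicle libraries for the same genes. In Granta-519 they were at 89.4, 32.4, 41.2, 18.8 and 16.1 with chidamide, against 101, 57.9, 46.8, 22.7 and 10.1 with vehicle. NFKB2 thus had the highest and REL the lowest level per kilobase of the 5 in all 4 groups, though REL has a long exon union. Outside the subunits LTB led all members in chidamide libraries labelled JeKo-1 with 348, followed by CD83 with 292, and CCL3 led in Granta-519 chidamide libraries with 293. The exon lengths are those of annotation and not of the isoforms used in these cells. In that annotation RELA, BCL10, MALT1, CYLD, CCL3, ICAM1 and IL6 also share exon sequence with genes on the opposite strand.

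The κB consensus was sought on both strands in the 250 bases before each RefSeq start. A gene counted as matched if any of its starts held a match, so genes with more starts had more chances. An entry was found for 33 of the 38 members, and 16 of them held a match (48.5%), against 6.28% of the 27305 genes with an entry. Taken by start, 5.21% of all 35116 entries held a match. By drug response, a match was held by 9 of the 14 members with an entry that rose in both lines, by 1 of the 5 that fell in both, and by 5 of the 13 whose calls differed between the lines. NFKBIB was the 1 that fell with a match, and the matched members that rose in both were REL, NFKBIA, NFKBIZ, BIRC3, TNFAIP3, CCL22, LTA, LTB and CD83. NFKB1, NFKB2 and CYLD, which rose under the JeKo-1 label and fell in Granta-519, each held a match as well. No entry was found for RELB and NFKBIE, which fell in both, CCL4, which rose in both, or CCL17 and IKBKB, whose calls differed. Known targets are in the list by choice, and the members were chosen with earlier results of these data known. Neither the difference from all genes nor that between the members by drug response was tested.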

How the data were processed

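The authors deposited whole-number counts per gene symbol and a second table named as TPM. The columns of the second table do not share a fixed total, so it is called a score here. Its per-gene constants are not exon lengths and are far off for TNF, LTA and LTB. The deposited score was used only as an alternative, on the log2 scale with a pseudocount of 0.1 in limma 3.58.1. Log2 changes from it are shrunk where the score is low. Reads were aligned with STAR to hg19, per the submitters' processing notes; the counter, annotation and strand setting are not given in the sources used here. Groups and replicate numbers came from the library titles.

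Counts were fitted with edgeR 4.0.16 in R 4.3.3 (filterByExpr by group with a minimum count of 10, TMM scaling, robust quasi-likelihood fit of 4 group means, 8 residual degrees of freedom). The filter kept 15087 of 26364 genes, with Benjamini-Hochberg adjustment over all of them and a threshold of 0.05. SEs are the log2 change over the square root of F and are approximate, more so where a group has few counts. CPM used TMM-scaled library sizes. The fit was tested on simulated counts. Library totals were 12873642 to 16592694, and the count intervals cover counting error only. Replicate pairs gave a chi-square per gene of 1.63 to 5.63, the highest with JeKo-1-label vehicle replicate 2, and none was merged. Alternatives were 3 other scalings, no count filter, DESeq2 1.42.0, the score with 3 pseudocounts (0.05, 0.1 and 0.4) or no filter, each line alone, a replicate block and leaving out each library.

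Every member was given values. Those called with a log2 change or difference of at least 1, and the 5 subunits, were given in every library, and the 3 largest called changes per further list and line were named. The members and lists were chosen with earlier results of these data known. Promoters were RefSeq entries on GRCh38.p14, not the build of the counts.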

Additional observations from a re-analysis of the deposited data

Results flagged for a closer look

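A difference between the lines in the response to chidamide drew attention to 29 members, each with an edgeR adjusted p under 0.05 for the JeKo-1-label log2 change minus that in Granta-519 (3 libraries per group). The change was more positive under the JeKo-1 label for TNF (1.66), CCL4 (1.28), LTA (1.24), CD83 (1.03), BCL3 (0.92), ICAM1 (0.86), CYLD (0.77), CCL3 (0.76), TNFAIP3 (0.71), NFKBIA (0.70), MYD88 (0.59), RELB (0.43), NFKBIE (0.43), NFKB1 (0.39), NFKB2 (0.34), EBI3 (0.26) and TNFAIP8 (0.22). It was more negative there for CCL17 (-1.92), IL10 (-1.66), MAP3K14 (-0.86), CCL22 (-0.69), BIRC3 (-0.60), CHUK (-0.53), SOD2 (-0.40), MALT1 (-0.39), IKBKB (-0.36), REL (-0.25), NFKBIZ (-0.23) and TRAF3 (-0.19). The share of all tested genes with a difference that passed was 39.5%, so that a call of this kind is common in these data. Sums of the myeloid markers, given above, also moved with chidamide in both lines, and their part was not tested.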

How the results depend on the processing

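Counts of members and of other pathway genes stayed within 1.5 times their reported values under the 23 alternatives, except that members with a more negative change under the JeKo-1 label were 7 without the count filter, against 12. Called members kept their direction and call under every alternative for 30 of 33 under the JeKo-1 label (BCL10, CHUK and NFKBIE did not), 28 of 33 in Granta-519 (BCL3, NFKB1, NFKB2, TNFAIP2 and TNIP1 did not), 20 of 29 for the difference (CCL3, CCL4, EBI3, IKBKB, NFKBIZ, REL, SOD2, TNFAIP8 and TRAF3 did not) and 32 of 35 between vehicle libraries (BCL10, NFKBIB and TRAF2 did not). Upper-quartile scaling moved the median log2 change of all genes under the JeKo-1 label by 0.15 and library-size scaling by 0.13. The members then gave 23 rises and 10 falls with upper-quartile scaling and 23 and 11 with library-size scaling. Library-size scaling moved the median difference by 0.13 and that between vehicle libraries by -0.14.

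Signs turned only for values that had not passed, apart from CCL4, whose difference was -0.0276 with the score at a pseudocount of 0.4. IKBKB under the JeKo-1 label was 0.0511 with upper-quartile and 0.0364 with library-size scaling, 0.0432 with the score, filtered or not, and 0.0442 and 0.0381 at pseudocounts of 0.05 and 0.4. In Granta-519 TRAF3 was 0.0124 and ICAM1 0.0807 with upper-quartile scaling, ICAM1 was 0.0215 with RLE factors and with DESeq2, and EBI3 was -0.0370 without the count filter. The RELA difference was 0.0201 with library-size scaling, 0.0429 without the filter, 0.0246 with the score, filtered or not, and 0.0259 and 0.0180 at pseudocounts of 0.05 and 0.4. Leaving out 1 library each gave -0.0341 to 0.0648 for MALT1 and -0.867 to 0.0505 for TNFAIP2 under the JeKo-1 label, -0.0295 to 0.0141 for ICAM1 in Granta-519, and -0.0681 to 0.00406 for REL between vehicle libraries. The cause was not tested.

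Chidamide and vehicle libraries of the same number had correlated deviations of -0.02 to 0.08, so the numbers were not taken to pair them. With a replicate block the members gave 21 rises and 12 falls under the JeKo-1 label, 23 and 10 in Granta-519, and 17 positive and 12 negative differences; between vehicle libraries the counts were 17 and 16, and REL was 0.0300. Changes in genes with few counts, such as IL6 and TNFAIP2 under the JeKo-1 label, were not detectable at this depth.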
